A study of Rattus norvegicus with 6 samples.

Results

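The 9 genes described here, B2m, Tap1, Tap2, Tapbp, Psmb8, Psmb9, Psmb10, Nlrc5 and Erap1, build the route by which a cell loads peptides onto MHC class I molecules. They were picked by gene symbol, with earlier results of these data known, and each had 1 row among the 18930 rows of the table. The cells were NRK-52E, an epithelial line from normal rat kidney, wild type by its label. RNA was sequenced from 3 samples kept for 24 h in 10 mM of streptozotocin (STZ), a nitrosourea sugar that alkylates DNA, and from 3 samples without STZ (Control), which the study calls vehicle-treated, with dimethyl sulfoxide as the solvent of STZ. They come from 1 line in culture, and nothing states that the samples were separate cultures, so p-values measure only the spread between these samples.

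Class I molecules carry fragments of the cell's own proteins to its surface, where CD8+ T cells inspect them. Proteasomes cut the proteins, and the subunits Psmb8, Psmb9 and Psmb10 can replace Psmb5, Psmb6 and Psmb7 to form the immunoproteasome. The transporter Tap1/Tap2 moves the peptides into the endoplasmic reticulum, Erap1 trims them there, tapasin (Tapbp) helps to load them, and B2m is the light chain that completes the molecule. Nlrc5 is the transactivator of class I genes, and interferon raises most genes of the route. In tubular epithelium, class I molecules are present at rest and become more abundant in inflammation.

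Promoter sequence is shown for the genes on which the comparison between partners turns, since Tap1 and Tap2 form 1 transporter and Tap1 and Psmb9 lie head to head. The sequences are those of RefSeq on GRCr8, and 7 of the 9 genes matched the promoter table used here, which did not list Nlrc5 or Erap1. Each line is the 250 bases before the annotated start, 5′ to 3′ on the gene's strand. Capitals mark the core of the interferon-stimulated response element, searched as GAAANNGAA, and a kappa B site, searched as GGGACTTTC, each on both strands, so that some capitals spell the reverse complement. The stretch of Tap1 is chr20:4668544-4668793, that of Tap2 is chr20:4652297-4652546, both on the minus strand, and that of Psmb9 is chr20:4668750-4668999 on the plus strand. The stretch of B2m is chr3:129549080-129549329 on the plus strand.
Tap1: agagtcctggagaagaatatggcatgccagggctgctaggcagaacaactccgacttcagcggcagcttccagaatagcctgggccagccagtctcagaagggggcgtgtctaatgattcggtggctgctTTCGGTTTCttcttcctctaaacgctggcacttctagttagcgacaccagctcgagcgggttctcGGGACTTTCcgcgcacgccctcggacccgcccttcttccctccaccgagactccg
Psmb9: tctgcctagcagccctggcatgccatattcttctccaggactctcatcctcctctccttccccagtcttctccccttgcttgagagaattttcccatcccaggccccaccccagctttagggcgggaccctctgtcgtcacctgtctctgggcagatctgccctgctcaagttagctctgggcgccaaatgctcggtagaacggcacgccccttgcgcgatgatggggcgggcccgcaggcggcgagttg
Tap2: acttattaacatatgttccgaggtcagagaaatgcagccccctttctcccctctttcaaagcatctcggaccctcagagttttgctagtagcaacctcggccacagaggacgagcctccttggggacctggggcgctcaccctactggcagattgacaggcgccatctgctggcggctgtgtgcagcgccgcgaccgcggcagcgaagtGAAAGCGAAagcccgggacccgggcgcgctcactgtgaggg
B2m: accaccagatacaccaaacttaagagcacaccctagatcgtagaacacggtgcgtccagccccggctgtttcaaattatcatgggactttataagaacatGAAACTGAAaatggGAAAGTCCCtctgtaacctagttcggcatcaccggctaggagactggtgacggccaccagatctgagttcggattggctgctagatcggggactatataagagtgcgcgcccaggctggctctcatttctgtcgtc

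Over windows of 250 bases before to 50 bases after the start, the core of the response element was present in 6 of the 7 genes with a sequence, all but Psmb9, and in 9.71% of 33469 promoters. The kappa B site, searched as that 1 exact sequence, was present in Tap1 and B2m and in 0.326% of the same promoters. Other forms of a kappa B site were not searched. In Tap1 the core ended 112 bases and the kappa B site 47 bases before the start, and in B2m they ended 142 and 128 bases before it, without overlap. The annotated starts of Tap1 and Psmb9 were separated by 456 bases, and their windows shared 44 bases. The core and the kappa B site of Tap1 lie between these starts but outside the window of Psmb9, so they were not counted for Psmb9. The half-site of p53 was found in the window of Psmb8 alone of the 7, and in 7.98% of all promoters. Of the remaining genes, Psmb10 had 3 cores, 2 of which overlap, Tapbp had 2 that overlap each other, and in Psmb8 the core spanned the start itself. The search fixed every letter of a core but those at N, so the likeness of the cores follows from the search. Surroundings of the cores are given, 1 for each overlapping pair, with the core in capitals.
Tapbp, chr20:4967879-4967907: gagggaaaatGAAAGTGAAaggaaacaga
Psmb8, chr20:4657016-4657044: tgctgtggctTTCGCTTTCacttccttgt
Psmb10, chr19:50743347-50743375: aagcaaaggcGAAAGTGAAagagaagatg
Psmb10, chr19:50743291-50743319: agtggggggtGAAAGCGAAagtaggaagc
A match describes the letters in the window and not whether a factor bound there.

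Total counts were between 10430924 and 12737131 in Control and between 11658253 and 15191349 in STZ. Reads are given as deposited, and levels as CPM, a gene's reads relative to the size of its library after scaling by edgeR's TMM method, where 1 read was worth between 0.0667 and 0.0943 CPM. All p-values for single genes were those of edgeR's quasi-likelihood test on the 11870 genes that passed its filter on low counts, with Benjamini-Hochberg adjustment over these genes. A gene is said to rise or fall at an adjusted p under 0.05, and to be differentially expressed when its log2 fold change also exceeded 1 in size, the thresholds of the study. So many genes moved after STZ that the first rule called 50.9% of genes, 25.9% as higher and 25.1% as lower, and the second called 3.37% in either direction and 2.26% as higher.

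Most tested genes of the route were higher in STZ-treated cells. Of the 8 genes that could be tested, 6 rose (Nlrc5, Psmb9, Psmb10, Tap1, Tap2 and B2m), Erap1 fell and Psmb8 was not past the threshold, beside the 25.9% of genes that rose and 25.1% that fell. Tapbp had too few reads to be tested. Tap1 and Nlrc5 also passed the threshold on fold change, beside 2.26% of all genes. The median log2 fold change of the 8 genes was 0.40, against -0.01 over all genes tested. In 7 of the 8 genes, all but Psmb8, no STZ sample lay within the range of the Control samples, a separation seen in 56.3% of all genes tested. RNA from whole cultures cannot tell a change in the number of cells of one kind from a change in RNA per cell.

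**Figure D1:**
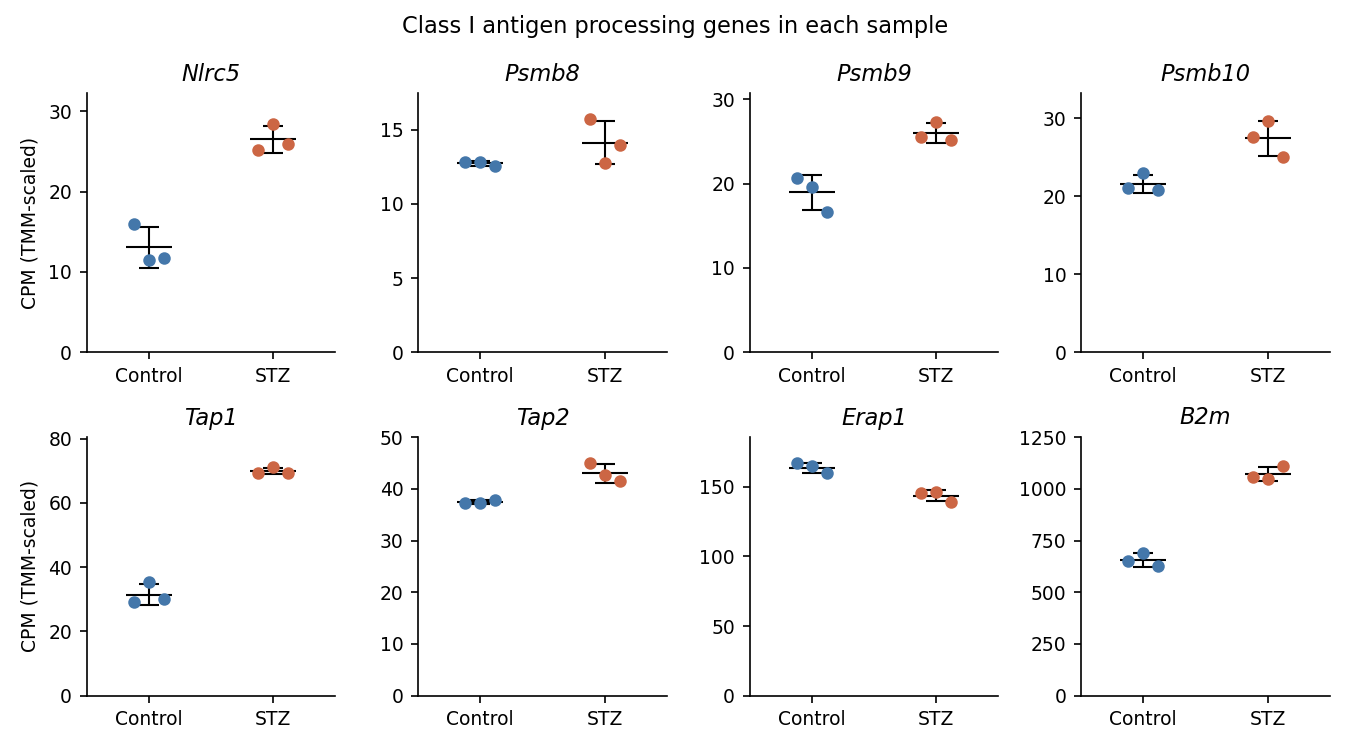
TMM-scaled CPM of the 8 tested genes in each of the 3 Control and 3 STZ samples (points), with the mean (bar) and SD (whiskers); each vertical axis starts at 0. The groups are apart in each panel but that of Psmb8, and STZ lies lower for Erap1 alone.

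Nlrc5, the transactivator, had 170, 126 and 150 reads in the Control samples and 346, 327 and 389 reads in the STZ samples. On the CPM scale these were 16.0, 11.5 and 11.7 in Control and 25.2, 28.4 and 26.0 in STZ. Every STZ sample lay above every Control sample, and Control replicate 1 was the highest of its group. The mean level was 13.1 ± 2.57 CPM in Control and 26.5 ± 1.70 CPM in STZ (SD, n = 3 each). The log2 fold change was 1.03 (SE 0.10, edgeR adjusted p = 9.6e-12), at percentile 97.9 of the log2 fold changes of all genes tested. This value sat at the fold threshold, since it was 0.99 with library size as the only scaling, and 0.95, 0.95 and 0.98 without Control replicate 2, Control replicate 3 and STZ replicate 2. The rise itself passed the adjusted p threshold under each alternative.

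Of the 3 subunits of the immunoproteasome, Psmb9 and Psmb10 rose. Psmb9, which takes the place of Psmb6, had 219, 216 and 213 reads in Control and 352, 315 and 377 in STZ. Its level rose from 19.0 ± 2.10 to 26.0 ± 1.17 CPM (SD, n = 3 each), a log2 fold change of 0.46 (SE 0.09, edgeR adjusted p = 1.7e-05). Psmb10, which takes the place of Psmb7, had 224, 252 and 266 reads in Control and 379, 341 and 376 in STZ. Its level rose from 21.6 ± 1.16 to 27.4 ± 2.27 CPM (SD, n = 3 each), with a log2 fold change of 0.34 (SE 0.08, edgeR adjusted p = 5.32e-04). In both genes the groups were apart. Psmb8, which takes the place of Psmb5, had 136, 141 and 161 reads in Control and 216, 147 and 209 in STZ. STZ replicate 2, at 12.8 CPM, lay inside the narrow Control range of 12.6 to 12.8 CPM, and the other STZ samples lay above it at 15.7 and 13.9 CPM. The log2 fold change of Psmb8 was 0.16 (SE 0.11, edgeR adjusted p = 0.218), so a rise was not detected. Whether the 3 log2 fold changes differ from each other was not tested.

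The constitutive subunits that these 3 replace were compared within each library, where the ratio of 2 genes does not depend on scaling. For each 100 reads of Psmb6, there were 13.5, 12.6 and 11.2 reads of Psmb9 in Control and 17.2, 18.3 and 15.6 in STZ. For each 100 reads of Psmb7, there were 8.56, 9.29 and 8.40 reads of Psmb10 in Control and 10.4, 11.4 and 9.27 in STZ. For each 100 reads of Psmb5, there were 6.89, 6.70 and 6.42 reads of Psmb8 in Control and 8.54, 7.0 and 7.76 in STZ. All STZ samples were above all Control samples for Psmb9 and Psmb8, whereas STZ replicate 3 fell just under the highest Control sample for Psmb10. The log2 ratio was higher in STZ by 0.45 for Psmb9/Psmb6, 0.24 for Psmb10/Psmb7 and 0.21 for Psmb8/Psmb5. Two-sided exact permutation tests over the 6 samples gave p = 0.1, 0.2 and 0.1, which became 0.15, 0.2 and 0.15 after Benjamini-Hochberg adjustment over the 3 pairs. The smallest p that 3 samples against 3 allow is 0.1, so none of these tests could pass. By themselves, Psmb5 and Psmb6 had log2 fold changes of -0.07 (edgeR adjusted p = 0.142) and 0.01 (edgeR adjusted p = 0.854), and Psmb7 rose with 0.11 (edgeR adjusted p = 0.0171). The call of Psmb7 was lost with library size as the only scaling (edgeR adjusted p = 0.101), with the upper quartile (edgeR adjusted p = 0.0512) and without STZ replicate 3 (edgeR adjusted p = 0.0686).

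**Figure D2:**
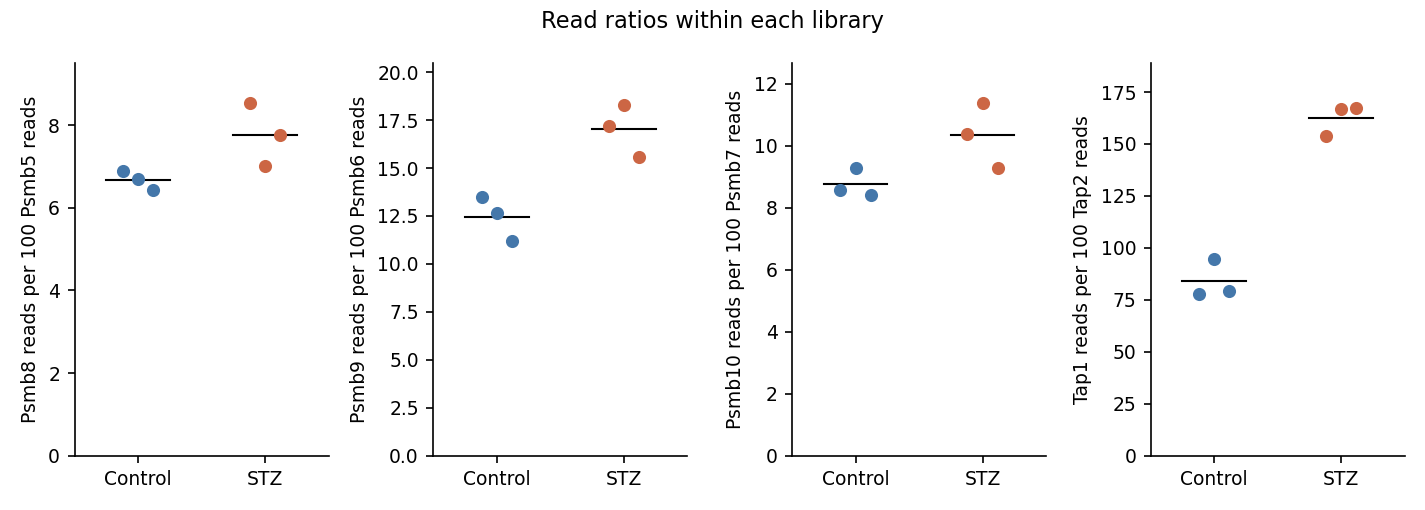
Reads of Psmb8, Psmb9 and Psmb10 per 100 reads of the constitutive subunit each replaces, and of Tap1 per 100 reads of Tap2, in each library (points) with the group mean (line); axes start at 0. The groups are apart except for Psmb10/Psmb7, where 1 STZ library at 9.27 lies just under the highest Control library at 9.29.

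Both chains of the transporter rose, and Tap1 had the largest log2 fold change of the 8 genes, a value whose difference from that of Nlrc5 was not tested. Tap1 had 308, 388 and 386 reads in Control and 954, 818 and 1039 in STZ. Its level rose from 31.5 ± 3.34 CPM to 69.9 ± 1.0 CPM (SD, n = 3 each), and the STZ samples lay within a narrow band of 69.3 to 71.1 CPM. The log2 fold change was 1.15 (SE 0.06, edgeR adjusted p = 2.6e-19), a 2.22-fold rise at percentile 98.3 of all genes tested. Tap2 had 395, 409 and 486 reads in Control and 620, 490 and 621 in STZ. It rose from 37.4 ± 0.395 to 43.0 ± 1.86 CPM (SD, n = 3 each), a log2 fold change of 0.20 (SE 0.06, edgeR adjusted p = 0.00784), and without STZ replicate 1 it was no longer past the threshold (0.17, edgeR adjusted p = 0.0531). The pair was compared directly after these values had been seen. For each 100 reads of Tap2, there were 78.0, 94.9 and 79.4 reads of Tap1 in Control and 154, 167 and 167 in STZ. The groups did not overlap, and the log2 ratio was higher in STZ by 0.96 (exact permutation p = 0.1, two-sided, the smallest possible). The log2 ratio of Tap1 to Psmb9, its head-to-head neighbour, was likewise compared after the values were seen and was higher in STZ by 0.69 (exact permutation p = 0.1, two-sided, the smallest possible).

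Tapbp had 0 or 1 reads in every library, and 2 in the Control group against 1 in the STZ group. Tapasin is a core part of the loading complex. The reads were too few for any comparison, and why the row holds so few was not tested. No protein-coding gene overlaps Tapbp, or any of the other 8 genes, in the GRCr8 annotation, which is not the build used for counting.

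Erap1, the aminopeptidase that trims peptides in the endoplasmic reticulum, moved against the rest. It had 1771, 1813 and 2050 reads in Control and 2003, 1683 and 2083 in STZ. On the CPM scale, which corrects for the deeper STZ libraries, these were 167, 165 and 160 in Control and 146, 146 and 139 in STZ, so that every STZ sample was the lower. The level fell from 164 ± 3.65 to 144 ± 4.01 CPM (SD, n = 3 each), and the log2 fold change was -0.19 (SE 0.04, edgeR adjusted p = 2.03e-04). It remained negative and past the threshold under each scaling, test and filter tried.

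B2m, the light chain shared by class I molecules, had the smallest p of the 8 tested genes. It had 6887, 7604 and 8050 reads in Control and 14534, 12056 and 16670 in STZ. Its level rose from 656 ± 32.4 to 1072 ± 35.1 CPM (SD, n = 3 each), with a gap between the highest Control sample at 691 CPM and the lowest STZ sample at 1047 CPM. The log2 fold change was 0.71 (SE 0.04, edgeR adjusted p = 6.12e-20), a 1.63-fold rise at percentile 95.6. The named genes whose log2 CPM followed that of B2m most closely over the 6 samples were Fth1, Timp1, Tob1, Pmm1 and Eci3, with Pearson's r between 0.998 and 0.999. These samples form 2 separate groups, so the r describes mostly the step between them, and the log2 fold changes of the 5 genes were 0.28, 0.65, 0.65, 0.53 and 0.43.

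**Figure D3:**
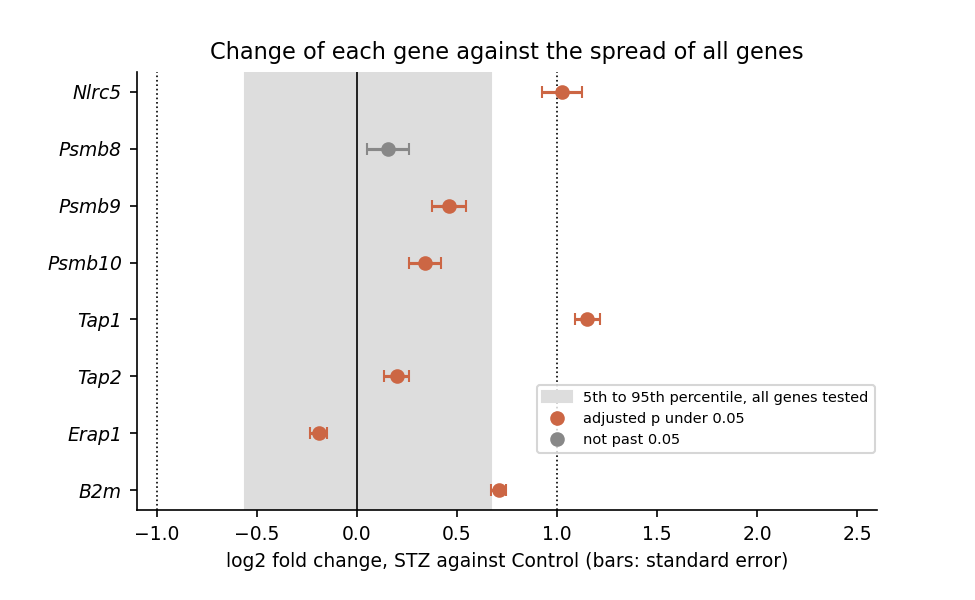
Log2 fold change of STZ against Control for the 8 tested genes (points; bars show the standard error), with the 5th to 95th percentile of all 11870 genes in grey (-0.56 to 0.67) and dotted lines at -1 and 1. Tap1, Nlrc5 and B2m lie beyond the grey band, and the other 5 genes lie inside it.

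Tap2, Psmb8, Tap1 and Psmb9 stand next to each other in this order in the class II part of the MHC on chromosome 20 of GRCr8, the order alone being used here. To one side lie class II genes at trace levels, RT1-Da, RT1-Db1, RT1-Ba and RT1-DOb, with at most 0.15 CPM in either group on average. RT1-Db2, on the same side, averaged 0.84 CPM in Control and 0.74 CPM in STZ, with a log2 fold change of -0.22 (edgeR adjusted p = 0.668). To the other side lie RT1-DMb and RT1-DMa, which encode the chains of the class II peptide editor, and then the chromatin reader Brd2. RT1-DMa rose from 45.3 ± 2.14 to 71.1 ± 2.42 CPM (SD, n = 3 each), a log2 fold change of 0.65 (SE 0.06, edgeR adjusted p = 5.91e-13). Its partner RT1-DMb, with 19 to 28 reads per library, had a log2 fold change of -0.13 (edgeR adjusted p = 0.715). Brd2, named for its position, rose with a log2 fold change of 0.21 (edgeR adjusted p = 1.37e-05). Neighbours in this stretch that could be tested thus had log2 fold changes from -0.22 for RT1-Db2 to 1.15 for Tap1, and the differences between neighbours other than the pairs above were not tested.

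**Figure D4:**
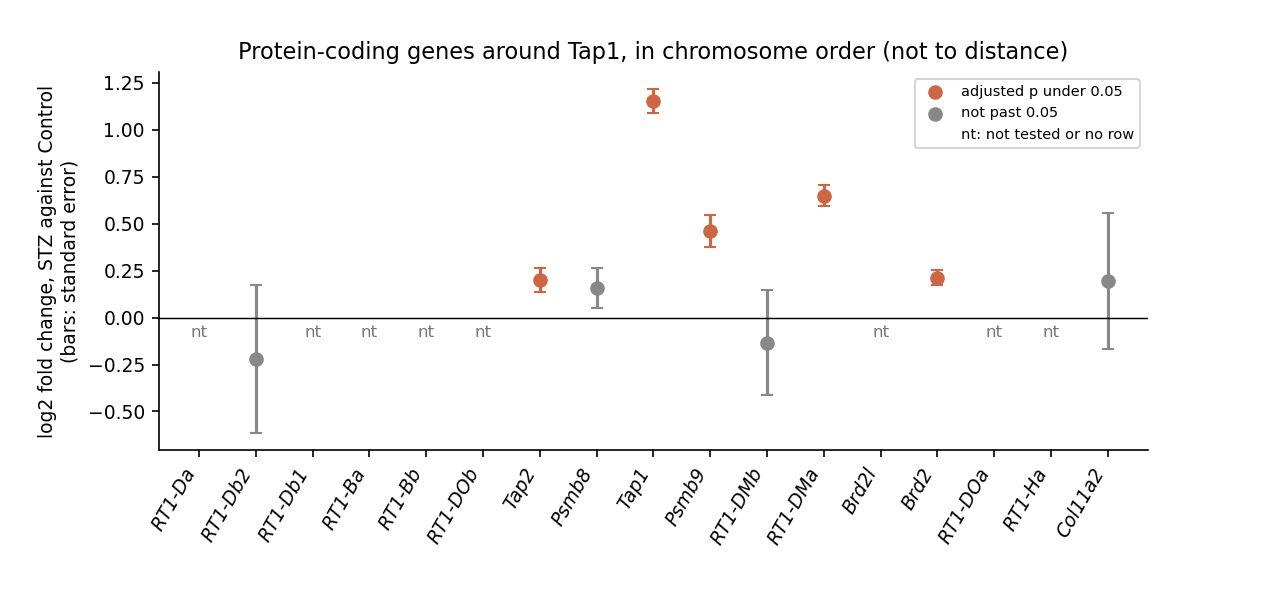
Log2 fold change of STZ against Control (points; bars show the standard error) for the 17 protein-coding genes from 8 before to 8 after Tap1, in chromosome order and evenly spaced; genes that were not tested or had no row are marked nt. Tap1 at 1.15 and RT1-DMa at 0.65 stand above the genes beside them.

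The heavy chains that pair with B2m belong to a family of near-identical copies, and only uniquely mapped reads were counted, so the split of reads between them is uncertain. Of 39 names of class I and class I-like heavy chains looked up, the table held 21 rows, none of them named RT1-A. Of these rows, 5 were under the filter on low counts, so the values below do not cover all heavy chains. Of 16 class I and class I-like heavy chain rows tested, 7 rose and 1 fell, beside 25.9% and 25.1% of all genes tested. Their median log2 fold change was 0.24. The 5 tested rows of the RT1-CE group rose, with log2 fold changes of 0.83 for RT1-CE14, 0.70 for RT1-CE11, 0.58 for RT1-CE2, 0.57 for RT1-CE1 and 0.41 for RT1-CE16. This grouping was made after the values had been seen. RT1-CE16, the row with most reads of the group, had 50.8 ± 0.57 CPM in Control and 67.4 ± 1.26 CPM in STZ (SD, n = 3 each). Cd1d1, which presents lipids, rose from 4.45 ± 0.772 to 8.04 ± 0.201 CPM (SD, n = 3 each; log2 fold change 0.86, edgeR adjusted p = 1.17e-05). Fcgrt, the neonatal Fc receptor that also pairs with B2m, rose with a log2 fold change of 0.24 (edgeR adjusted p = 1.72e-05). RT1-T24-1 fell with a log2 fold change of -0.29 (edgeR adjusted p = 5.48e-05). Those not past the threshold had log2 fold changes of -0.02 for RT1-M3-1, 0.30 for RT1-M6-2, 0.19 for RT1-N2, 0.00 for RT1-N3, -0.06 for RT1-S3, 0.24 for RT1-T24-4, 0.12 for Mr1, the presenter of microbial metabolites, and 0.16 for Hfe, the regulator of iron uptake.

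Chaperones and peptidases that serve the route had log2 fold changes from -0.58 for Blmh to 0.34 for Uggt1. Of 11 tested, 5 rose and 2 fell, beside 25.9% and 25.1% of all genes tested, and the median log2 fold change was 0.09. Without Control replicate 1, 3 rose, the calls of Canx (edgeR adjusted p = 0.0514) and Hspa5 (edgeR adjusted p = 0.0573) being lost. The chaperones Uggt1 (0.34), Pdia3 (0.27) and Calr (0.21) had the smallest p-values among those that rose. The cytosolic peptidases Blmh and Thop1, which can destroy peptides before transport, fell with log2 fold changes of -0.58 (edgeR adjusted p = 1.49e-12) and -0.32 (edgeR adjusted p = 1.66e-06). Of 8 constitutive proteasome subunits and activators, 6 rose, beside 25.9% of all genes tested, and Psmb5 and Psmb6 were not past the threshold. The median of the 8 was 0.10. With library size as the only scaling, however, 3 rose and Psmb5 fell, and with the upper quartile, or without STZ replicate 3, 3 rose. The proteasome activator Psme1, itself raised by interferon, led them with a log2 fold change of 0.29 (edgeR adjusted p = 5.22e-07), followed by the assembly factor Pomp (0.22) and by Psme2 (0.18).

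Of the regulators that act on class I promoters or upstream of them, Irf1 and Rfx5 rose. Of 16 tested, 2 rose and 7 fell, beside 25.9% and 25.1% of all genes tested, with a median log2 fold change of -0.15. Irf1, which binds the interferon response element, rose from 44.1 ± 1.90 to 59.5 ± 2.34 CPM (SD, n = 3 each), a log2 fold change of 0.43 (SE 0.06, edgeR adjusted p = 4.54e-08). Rfx5, a subunit of the RFX complex with which Nlrc5 works, rose with 0.12 (edgeR adjusted p = 0.0307), a call that was lost with library size or the upper quartile as scaling, with DESeq2, and without Control replicate 1, Control replicate 3 or STZ replicate 2. Rfxank, another subunit of the RFX complex, fell with -0.37 (edgeR adjusted p = 0.00537). Its subunit Rfxap, at -0.14, was not past the threshold (edgeR adjusted p = 0.17). Nfyc, Nfkb1 and Rela fell with log2 fold changes of -0.43, -0.25 and -0.18 (edgeR adjusted p = 7.3e-09, 8.83e-05 and 0.00372). Nfyc belongs to the NF-Y complex of these promoters, and Nfkb1 and Rela are among the subunits that bind kappa B sites.

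Of the genes raised by interferon outside the route, Irf7, Cxcl10, Ifi27, Usp18, Gbp2 and Bst2 rose. They were 6 of 8 tested, beside the 25.9% of all genes tested that rose. The median log2 fold change of the 8 was 0.72. Irf7, a factor of the type I interferon response, rose from 20.2 ± 1.60 to 52.9 ± 1.61 CPM (SD, n = 3 each; log2 fold change 1.39, edgeR adjusted p = 1.96e-20). The chemokine gene Cxcl10 was also differentially expressed, with 40, 46 and 48 reads in Control and 130, 83 and 148 in STZ and a log2 fold change of 1.20 (edgeR adjusted p = 3.33e-08). Other genes of the same list stayed at trace levels in both groups, among them Ifit2, Ifit3 and Mx1 with at most 5 reads in any library. Not past the threshold were Mx2, at 46 to 71 reads per library, and Oas1a, at 6 to 15 reads.

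**Figure D5:**
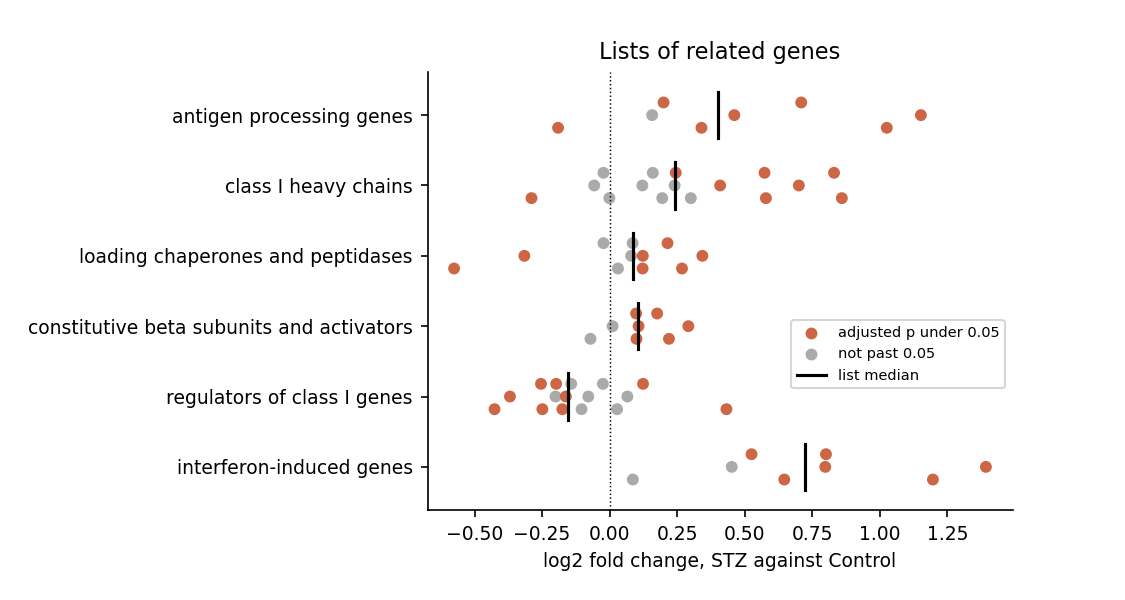
Log2 fold change of STZ against Control for each gene tested (points) in the 8 tested antigen processing genes and 5 lists of related genes, with the list median (line). Medians run from -0.15 for the regulators to 0.72 for the interferon-induced genes, with the antigen processing genes at 0.40.

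Markers of other cells were checked, because leukocytes express these genes at high levels. The leukocyte markers in the table summed to between 1.45 and 2.26 CPM in the Control samples and between 2.35 and 2.83 CPM in the STZ samples. Of these 5 genes Cd68 alone could be tested (log2 fold change 0.40, edgeR adjusted p = 0.279). The pan-leukocyte gene Ptprc had 1 read in 1 Control library and 0 in all others, and Cd68 had 7 to 29 reads per library. The class II genes Cd74 and Ciita, which mark professional antigen-presenting cells, had at most 6 reads in any library. Fibroblast and endothelial markers summed to between 47.1 and 52.6 CPM in Control and between 37.4 and 44.0 CPM in STZ, nearly all of it Col1a1 and Pdgfrb, and both of these fell. The call of Col1a1 was lost without Control replicate 3 (edgeR adjusted p = 0.0574) or STZ replicate 3 (edgeR adjusted p = 0.226). The endothelial receptor gene Kdr went the other way, with 0, 2 and 1 reads in Control and 6, 9 and 7 in STZ, and the groups were apart. It was under the filter on low counts, and with no filter its edgeR adjusted p was 0.00864. Of the epithelial markers, Krt8 was abundant and rose (log2 fold change 0.48, edgeR adjusted p = 1.82e-15), Aqp1 fell with -1.25 (edgeR adjusted p = 9.36e-09) and Cdh1, at 16 to 35 reads, fell with -0.69 (edgeR adjusted p = 0.0296). The call of Cdh1 was lost with DESeq2 (adjusted p = 0.113), without Control replicates 1 or 3 and without STZ replicates 1 or 3 (edgeR adjusted p from 0.0572 to 0.223). The keratin Krt18 and the tubule genes Cdh16, Pax8 and Lrp2 had at most 4 reads in any library, although the cells are labelled kidney epithelial. Krt8 had between 11691 and 24040 reads in the same libraries. As with Tapbp, why these rows hold so few reads was not tested. The part of these markers in the values above was not tested.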

How the data were processed

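RNA of NRK-52E cells was sequenced in 3 Control and 3 STZ samples. The authors prepared stranded mRNA libraries, mapped the reads to Rnor6 with STAR 2.7.10a, assigned uniquely mapped reads to genes with featureCounts, and deposited the raw counts. How strand was treated in counting is not given in the sources used here. Columns were assigned by their labels, and 0 were left over.

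All rows were fitted together with edgeR 4.0.16 (R 4.3.3), using TMM scaling, filterByExpr at its defaults and the quasi-likelihood test with Benjamini-Hochberg adjustment. SE was the size of the log2 fold change over the square root of F. CPM of a gene used the TMM-scaled library sizes. Ratios of 2 genes used reads plus 0.5. The steps were tested on simulated data. Alternatives were 3 filters, 3 scalings, 3 tests (edgeR's likelihood ratio test, DESeq2 1.42.0 and limma-voom 3.58.1), the replicate block and each sample left out. Within groups, libraries differed beyond sampling noise (chi-square per degree of freedom at least 1.85), so none was treated as a second sequencing of another. These values cannot tell separate cultures from separate libraries of 1 culture. The common coefficient of variation between samples of a group, as estimated by edgeR, was 3.25%.

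The genes and lists were chosen with earlier results of these data known. Named are the 9 genes, Psmb5, Psmb6, Psmb7, Irf1, the tested heavy chains, and in other lists the differentially expressed genes or up to 3 with the smallest p in each direction. Further genes, including Rfx5, Rfxank, Rfxap, Cd74, Ciita, Brd2 and those at trace levels, were named after their values were seen.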

Additional observations from a re-analysis of the deposited data

How the results depend on the processing

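Each of the 8 tested genes kept its direction under 16 alternative fits, and its side of the adjusted p threshold except Tap2 without STZ replicate 1 (0.17, edgeR adjusted p = 0.0531). With library size only, differentially expressed genes of the route numbered 1 in place of 2, constitutive subunits and activators 3 higher and 1 lower, and regulators 1 higher. With the upper quartile these were 3 and 1 higher. DESeq2 gave 1 regulator higher and 1 epithelial marker lower. Constitutive subunits and activators higher, 6 in the main fit, numbered 4 with DESeq2, with no filter and with at least 0.5 CPM in 1 sample. Regulators lower, 7 in the main fit, numbered 9 with library size only, 8 with the upper quartile and 6 with DESeq2. With no filter, and with at least 0.5 CPM in 1 sample, 1 fibroblast or endothelial marker, Kdr, was higher, since it then entered the test. The cause of the other changes was not tested. The following ranges are those with each sample left out. Differentially expressed genes of the route numbered 1 to 2 (1 without Control replicates 2 or 3 or STZ replicate 2). Chaperones and peptidases higher numbered 3 to 5 (3 without Control replicate 1). Constitutive subunits and activators higher, counted together, numbered 3 to 5 (3 without STZ replicate 3). Regulators higher numbered 1 to 2 (1 without Control replicates 1 or 3 or STZ replicate 2), and regulators lower 5 to 8. Fibroblast or endothelial markers lower numbered 1 to 2 (1 without Control replicate 3 or STZ replicate 3). Epithelial markers lower numbered 1 to 2 (1 without Control replicates 1 or 3 or STZ replicates 1 or 3). The median of the route was 0.34 to 0.45.

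Same-numbered samples had deviations with correlations of 0.0319, -0.0389 and 0.102 over 10341 genes. These values cannot tell whether same-numbered samples were handled together, and the main fit did not pair them. The replicate block gave 6 genes of the route higher, 1 lower and 2 differentially expressed, as without it. Tapbp and the markers at trace levels had too few reads to be tested.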
